A study of Mus musculus with 10 samples.

Results

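Glutathione transferases and genes of the NRF2 antioxidant programme were examined in cultured mouse tongue epithelial cells. The members were chosen by gene symbol. They were the cytosolic and mitochondrial transferase classes mu, alpha, pi, theta, omega, kappa and zeta, the microsomal transferases, and 23 named genes for glutathione synthesis, NADPH supply, thioredoxin and peroxide removal together with Nfe2l2 and Keap1. All 23 named genes and 20 transferases were found, so that 43 of the 18586 genes in the table were members. The libraries were poly(A) RNA from primary cultures of tongue epithelium taken 15 days after transgene induction in adult littermate mice, sorted for the H2B-GFP reporter and grown in keratinocyte medium with doxycycline. Both genotypes carried Krt14-CreERT and LSL-rtTA together with the reporter tetON_H2B-GFP. EY cells carried in addition tetON_E6-E7, for the HPV16 oncogenes, and tetON_YAP1S127A, a constitutively active YAP1, whereas N cells carried neither. In both genotypes the Krt14 promoter, which is active in basal epithelial cells, drove the tamoxifen-inducible Cre recombinase, and both had been exposed to tamoxifen and doxycycline. The 6 EY libraries were 2 each of the lines EY3960, EY4028 and EY4174, and the 4 N libraries were all of the single line N4172. The genotype effect and the particular N line cannot be told apart, and p-values measure the spread between libraries, since the labels do not say whether libraries of a line came from separate cultures.

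Glutathione transferases join the tripeptide glutathione to electrophiles such as oxidised lipids, drugs and carcinogens, which are then exported from the cell. The transcription factor NRF2, encoded by Nfe2l2, is held at a low level by KEAP1, which presents it for degradation. When KEAP1 is modified by electrophiles or oxidants, NRF2 accumulates and binds antioxidant response elements with small MAF partners, and many transferases, Nqo1, Gclc and Gclm are classical targets. In squamous epithelia these enzymes are part of the defence of the surface against ingested and inhaled compounds, and NRF2 is often active in squamous carcinoma. NRF2 activity is set largely by protein stability, so that the transcript of Nfe2l2 need not follow it.

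All values are TPM, a transcript abundance scaled by transcript length and to a common sum in each library. The number of reads behind a value is not known. Between 10852 and 11522 genes reached 1 TPM in each library. Keratinocyte identity was checked with 7 basal markers, whose summed level was 4256 to 7200 TPM in EY and 5293 to 6027 TPM in N. Among these markers Krt15 was lower than in N, with log2 fold changes of -1.215, -3.11 and -1.36 in EY3960, EY4028 and EY4174. Those of Krt5 and Krt14 were between -0.40 and 0.48. Summed fibroblast, endothelial, melanocyte and skeletal muscle markers stayed at or below 3.44 TPM in every library. Ptprc, which defines leukocytes, stayed at or below 0.347 TPM. With Cd68, the other immune marker in the table, the sum was 29.3 to 71.9 TPM in EY and 42.2 to 68.9 TPM in N. Yap1, the mouse gene of the table, was at 34.7 to 57.1 TPM in EY and 17.2 to 20.9 TPM in N, and how far reads of the YAP1S127A transgene enter this value is not known. N replicate 4 stood apart from the other N libraries in 864 of 11630 genes, against 63 to 126 for each of the others, and member values without it are given where it moved a call.

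Promoter sequence was examined first, because antioxidant response elements lie upstream of several members. RefSeq windows on build GRCm38.p6, from 250 bases before to 50 bases after a start site, were given for 37 of the 43 members. The core letters TGACNNNGC of the element, on either strand, stood in the windows of 11 of these 37 members (29.7%). The same letters stood in 14.0% of all 27025 genes with a window, and in 16.5% of the 11926 such genes of the expression table. Of the mu and alpha members with a window, 2 of 8 held the letters, Gstm5 and Gsta3. The other 9 members with the letters were Gclm, Nfe2l2, Srxn1, Prdx1, Pgd, Mgst1, Txnrd1, Sod1 and G6pdx. The letters stood in 2 of the 10 members with a window that were called lower in EY, as given below. They stood in 9 of the 27 not called. No window was given for Gclc, Gsr, Gsta4, Gstt2, Hmox1 and Prdx6, so that their letters are not known. Gstm1, the member with the lowest fold change, is shown for a window without the letters. Gstm5 and Gsta3 are shown because both were lower in EY and held them, and Gclm as a classical NRF2 target. Capitals mark the letters of the element. The windows were chr3:107895604-107895903 on the plus strand for Gstm5, chr1:21240335-21240634 on the plus strand for Gsta3, chr3:122245307-122245606 on the plus strand for Gclm and chr3:108017769-108018068 on the minus strand for Gstm1.
Gstm5: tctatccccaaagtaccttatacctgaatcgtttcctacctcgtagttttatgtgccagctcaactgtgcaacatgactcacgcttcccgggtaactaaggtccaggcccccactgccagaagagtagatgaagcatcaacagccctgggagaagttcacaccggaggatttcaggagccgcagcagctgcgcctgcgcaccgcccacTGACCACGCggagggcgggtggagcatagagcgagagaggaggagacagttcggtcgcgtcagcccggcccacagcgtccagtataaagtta
Gsta3: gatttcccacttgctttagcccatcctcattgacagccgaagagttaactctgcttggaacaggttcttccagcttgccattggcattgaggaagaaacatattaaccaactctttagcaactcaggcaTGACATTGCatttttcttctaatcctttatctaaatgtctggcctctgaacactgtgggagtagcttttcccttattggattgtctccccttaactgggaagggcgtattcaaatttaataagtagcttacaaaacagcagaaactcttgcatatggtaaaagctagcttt
Gclm: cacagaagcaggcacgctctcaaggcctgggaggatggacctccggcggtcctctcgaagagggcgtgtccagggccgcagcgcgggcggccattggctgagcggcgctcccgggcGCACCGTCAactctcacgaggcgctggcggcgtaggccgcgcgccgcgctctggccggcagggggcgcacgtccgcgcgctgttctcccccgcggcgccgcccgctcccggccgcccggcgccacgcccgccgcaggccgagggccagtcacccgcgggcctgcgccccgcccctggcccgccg
Gstm1: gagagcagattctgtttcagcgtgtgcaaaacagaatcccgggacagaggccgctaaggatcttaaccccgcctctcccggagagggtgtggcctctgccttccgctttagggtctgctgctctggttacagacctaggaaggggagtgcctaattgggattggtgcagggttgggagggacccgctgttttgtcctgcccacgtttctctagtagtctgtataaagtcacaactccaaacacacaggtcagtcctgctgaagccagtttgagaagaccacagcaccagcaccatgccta
In Gstm5 the letters began at position -42 from the start site, in Gsta3 at -121 and in Gclm at -134, where they read on the opposite strand. The AP-1 letters TGANTCA were found in 6 of 37 member windows (16.2%) and in 8.97% of all genes with a window, Gstm5 among them. The TEAD letters GGAATG were found in 2 of 37 (5.41%) and in 16.6% of all genes with a window, and the 2 were Gstm2 and Gstm6. In the Prdx1 window 1 antioxidant match overlapped an AP-1 match. A match in a window is a description of its letters, not a binding site.

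The comparison of EY with N asked which of these genes differed once E6-E7 and the YAP1 mutant were expressed. Values on the scale log2(TPM + 1) were compared with limma over every gene that reached 1 TPM in 4 or more libraries. A call required a log2 fold change beyond 1 in either direction and a p under 0.01 after Benjamini-Hochberg adjustment. Every adjusted p below is of that test. Of the members, 42 passed the filter and Gstt2 did not. Lower in EY were 11 members, namely the mu transferases Gstm1, Gstm2, Gstm4, Gstm5 and Gstm6, the alpha transferases Gsta1, Gsta2 and Gsta3, the pi transferase Gstp2, the microsomal Mgst2 and the glutathione synthesis gene Gclc. Over all genes tested, 1.7% were called lower. With line as a random block Gclc, Gsta1, Gstm2 and Mgst2 lost their calls, with adjusted p from 0.0275 to 0.0493. No member was called higher, where 1.85% of all genes were. Gstm4 and Gstm6 passed the filter through the N libraries alone, so that their direction was fixed by it, and Gsta2 reached 1 TPM in 2 EY libraries beside the 4 of N. Without any filter all 43 members were tested and 11 were called lower, against 1.09% of all 18586 genes. The median log2 fold change was -1.37 over the 19 transferases tested and 0.07 over the 23 other members, against 0.03 over all genes.

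The separation of the libraries is another reading of the same values, not independent of the calls. All 6 EY libraries lay below all 4 N libraries for 16 of the 42 members, where 9.1% of all genes did so, and above them for 4 members, where 11.3% did. Of the 16, 12 were among the 19 transferases tested. Among these 12 were Gstm4 and Gstm6, which reached 1 TPM in all 4 N and in 0 EY libraries. Their separation was therefore fixed by the filter. The 4 members with all EY libraries above were Pgd, Txn1, Prdx1 and Gpx1, none of them a transferase. In the remaining 22 the groups overlapped.

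**Figure D1:**
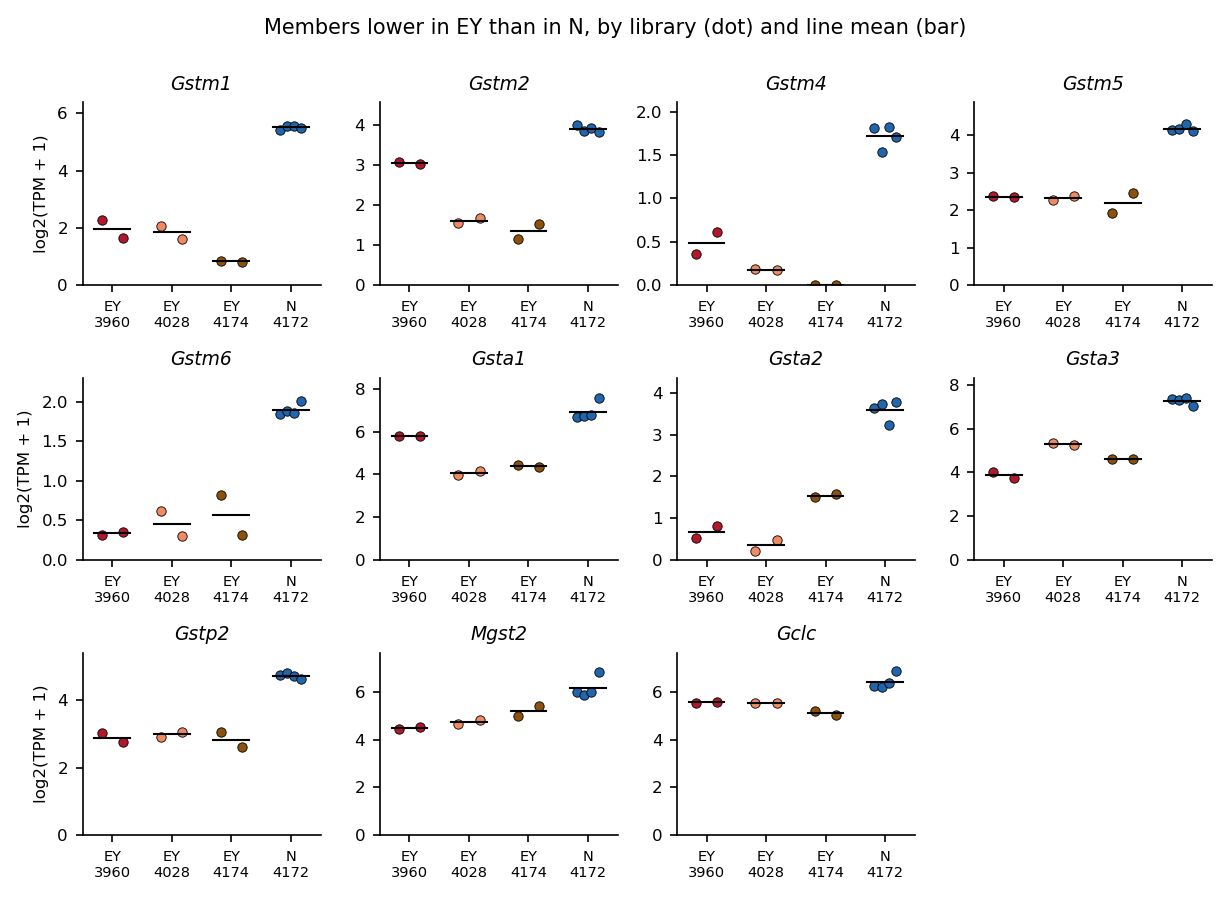
Level of the 11 members called lower in EY, as log2(TPM + 1) on the y axis, by line on the x axis. Dots are libraries, 2 for each EY line and 4 for N, and bars are line means. In every panel all EY libraries lie below all N libraries, which the filter had fixed for Gstm4 and Gstm6. N replicate 4, the rightmost N dot, is high for Gsta1, Mgst2 and Gclc.

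The mu class was called lower in all 5 of its listed members, of which Gstm4 and Gstm6 had their direction fixed by the filter. Mu transferases conjugate epoxides and polycyclic hydrocarbon metabolites. Their summed level was 5.63 to 16.04 TPM in the EY libraries and 78.9 to 84.6 TPM in N. Gstm1 made up most of the N level. It was at 3.84 and 2.16 TPM in line EY3960, 3.19 and 2.07 in EY4028, 0.808 and 0.738 in EY4174, and 41.97, 46.3, 46.2 and 44.4 in the N replicates 1 to 4. Every EY library was thus far below the lowest N library, and line EY4174 was the lowest. Gstm1 averaged 44.7 ± 2.03 TPM over the N libraries (SD, n = 4) and 2.13 ± 1.24 TPM over the EY libraries (SD, n = 6). The log2 fold change was -3.97 ± 0.27 (SE, adjusted p 3.73e-06).

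Gstm5 was the most even mu member across lines. It was at 4.17 and 4.14 TPM in EY3960, 3.88 and 4.25 in EY4028, 2.82 and 4.53 in EY4174, and 16.6, 17.0, 18.96 and 16.3 in N. The EY and N libraries did not overlap and the EY lines did. Its log2 fold change was -1.88 ± 0.11 (SE, adjusted p 1.05e-06), and the N mean was 4.34 times the EY mean. Gstm2 was uneven instead. It was at 7.50 and 7.13 TPM in EY3960, 1.92 and 2.19 in EY4028, 1.23 and 1.90 in EY4174, and 15.2, 13.6, 14.2 and 13.2 in N. Line EY3960 lay between the other EY lines and N. The log2 fold change over all EY libraries was -1.91 ± 0.38 (SE, adjusted p 0.00520). Gstm2 was called in 11 of 23 alternative fits, and without N replicate 4 the adjusted p was 0.0126.

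Gstm4 and Gstm6 were the least abundant mu members. Gstm4 was at 1.89 to 2.54 TPM in N and at most 0.533 TPM in EY, and was listed at 0 in both EY4174 libraries. Gstm6 was at 2.60 to 3.03 TPM in N and at 0.232 to 0.765 TPM in EY. Their log2 fold changes were -1.50 and -1.45 (adjusted p 4.66e-05 and 3.47e-05), and both are small on this scale because the pseudocount of 1 TPM weighs on low levels.

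The mu members stand side by side on chromosome 3 of the GRCm38 annotation, in the order Gstm5, Gstm6, Gstm2, Gstm1 and Gstm4 among those listed. Of the genes flanking this array, 6 were tested between EY and N and 0 were called. Over all genes 1.7% were called lower and 1.85% higher, so that 0 of 6 does not set the flank apart. The log2 fold changes ran from -0.08 for Gnai3 to 1.24 for Csf1 (adjusted p 0.0292). By line, Csf1 was called higher in EY4028 (2.18, adjusted p 4.05e-05) and EY4174 (1.03, adjusted p 0.00520). In EY3960 it was at 0.52 (adjusted p 0.0993) and was not called. Gstm3 and Gstm7 lie in the same array and were not analysed here. Of 50-base words in the Gstm1 transcripts, 19.9% also occur in transcripts of another gene, against 8.30% for Gstm2 and 9.74% for Gstm6. For Gstm4 and Gstm5 the share was 0%. These shares count exact matches alone, and how reads with mismatches were assigned is not known.

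In the alpha class, which handles lipid peroxidation products and steroids, 3 of 4 members were called lower and the fourth, Gsta4, was not. Gsta3 was at 15.3 and 12.2 TPM in line EY3960, 40.2 and 37.6 in EY4028, 23.2 and 23.3 in EY4174, and 164, 158, 167 and 130.0 in N. All EY libraries were low and EY3960 was the lowest. Gsta3 averaged 155 ± 16.9 TPM over the N libraries (SD, n = 4) and 25.3 ± 11.4 TPM over the EY libraries (SD, n = 6). The log2 fold change was -2.68 ± 0.31 (SE, adjusted p 2.45e-04). Its transcripts share 0% of 50-base words with other genes.

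Gsta2 was at 0.438 and 0.772 TPM in EY3960, 0.166 and 0.396 in EY4028, 1.82 and 1.99 in EY4174, and 11.4, 12.2, 8.45 and 12.8 in N. Here EY4174 was the highest EY line, unlike for Gstm1. Gsta2 had a log2 fold change of -2.74 ± 0.27 (SE, adjusted p 3.88e-05). Gsta1 was at 54.3 and 54.6 TPM in EY3960, 14.5 and 17.0 in EY4028, 20.7 and 19.5 in EY4174, and 101, 104, 108 and 189.7 in N, where replicate 4 was high. The EY3960 level was closest to N. For Gsta1 the log2 fold change was -2.18 ± 0.42 (SE, adjusted p 0.00582). Without N replicate 4 it was -1.97 with an adjusted p of 0.0155, and Gsta1 was called in 10 of 23 alternative fits.

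The reads of Gsta1 are hard to assign. Of its 50-base words, 89.7% occur in other genes and 82.9% in the predicted gene Gm3776 of the same array on chromosome 9. Gm3776 had a log2 fold change of -1.80 over all EY libraries (adjusted p 0.0462) and was not called there. By line it was called lower in EY4028 (-2.04, adjusted p 3.39e-04) and EY4174 (-2.89, adjusted p 4.33e-05). In EY3960, where Gsta1 was closest to N, Gm3776 was at -0.46 (adjusted p 0.205). Gm10639, which also lies between Gsta1 and Gsta2, was called lower at -1.78 (adjusted p 6.38e-05). Of the neighbours of this array, 4 were tested and Gm10639 was the 1 called over all EY libraries.

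Gsta4, which removes the lipid peroxidation product hydroxynonenal, was one of the most abundant transferases in all groups. It was at 1472 and 1397 TPM in EY3960, 732 and 717 in EY4028, 529.7 and 628 in EY4174, and 1045, 1036, 1050.3 and 1527 in N. EY3960 overlapped N and the other EY lines lay below it. The log2 fold change was -0.44 ± 0.30 (SE, adjusted p 0.322), within the spread between the EY lines.

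Pi class transferase is often raised in human carcinomas. Its abundant member Gstp1 was at 559 to 703 TPM in EY and 665 to 742 TPM in N, with overlapping groups and a log2 fold change of -0.19 ± 0.08 (SE, adjusted p 0.116). The minor member Gstp2 was at 7.05 and 5.79 TPM in EY3960, 6.48 and 7.31 in EY4028, 7.23 and 5.09 in EY4174, and 25.5, 27.0, 25.1 and 23.5 in N. Gstp2 was low in every EY library, and its log2 fold change was -1.82 ± 0.11 (SE, adjusted p 9.18e-07). Gstp1 and Gstp2 share 51.0% and 50.4% of their 50-base words with other genes, largely with each other, so that the division of reads between them is uncertain. Of the genes next to them on chromosome 19, 6 were tested and 0 were called, against 1.7% lower and 1.85% higher of all genes.

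Among the microsomal transferases, membrane proteins of which some act in leukotriene synthesis, Mgst2 was called lower, Mgst3 was not called and Mgst1 was low throughout. Mgst2 was at 20.7 and 22.3 TPM in EY3960, 24.6 and 27.7 in EY4028, 30.8 and 41.6 in EY4174, and 63.3, 58.2, 63.6 and 115 in N. Its log2 fold change was -1.37 ± 0.22 (SE, adjusted p 0.00131), and without N replicate 4 it was -1.15 (adjusted p 0.00165). With line as a random block the adjusted p was 0.0493 and Mgst2 was not called. Mgst3 was at 101 and 102 TPM in EY3960, 64.9 and 59.8 in EY4028, 52.6 and 58.7 in EY4174, and 42.6, 40.5, 48.4 and 53.1 in N. EY3960 was the highest line, and the log2 fold change over all EY libraries was 0.61 ± 0.19 (SE, adjusted p 0.0397). Mgst1 was at 0.956 to 5.44 TPM in EY and 1.51 to 3.77 TPM in N.

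The other classes were small or were not called. Gstt3, a theta member, was at 0.879 to 2.24 TPM in EY and 2.71 to 3.58 TPM in N, and its log2 fold change was -0.64 ± 0.17 (SE, adjusted p 0.0181). Gstt2 was at most 0.545 TPM in any library and was not tested. Gstk1, the mitochondrial kappa transferase, was at 6.01 to 13.4 TPM in EY and 15.6 to 18.3 TPM in N, below the fold threshold at -0.84 ± 0.18 (SE, adjusted p 0.00569). Gstz1, an enzyme of tyrosine breakdown, was at 16.0 to 22.2 TPM in EY and 18.3 to 21.5 TPM in N.

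Omega transferases, which reduce rather than conjugate and act in dehydroascorbate and arsenic metabolism, differed between the EY lines and were not called between EY and N. Gsto1 was at 3546 and 3347 TPM in EY3960, 1417 and 1349 in EY4028, 886 and 916 in EY4174, and 1292, 1224, 1325 and 1772 in N. EY3960 lay above every N library, EY4028 lay among them and EY4174 lay below. Over all EY libraries the log2 fold change was 0.23 ± 0.43 (SE, adjusted p 0.743), and without line EY3960 it was -0.31 (adjusted p 0.231). Gsto2 was at 27.4 and 25.2 TPM in EY3960, 10.5 and 12.3 in EY4028, 5.07 and 5.30 in EY4174, and 15.7, 12.8, 14.8 and 9.93 in N. Its lines stood in the order of the Gsto1 lines.

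The transferases called lower were those of low and middle level. In N, Gsto1, Gsta4 and Gstp1 together held 84.6% to 85.9% of the TPM of the 20 transferases, and in EY they held 91.7% to 95.5%. The mu members held 1.702% to 2.35% in N and 0.249% to 0.330% in EY, and Gsta1, Gsta2 and Gsta3 together 7.14% to 7.91% in N and 1.17% to 2.12% in EY. The other 17 transferases together were at 534 to 658 TPM in N and 179 to 273 TPM in EY, with no overlap. The whole transferase sum overlapped between the groups, at 2157 to 5993 TPM in EY and 3459 to 4659 TPM in N.

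**Figure D2:**
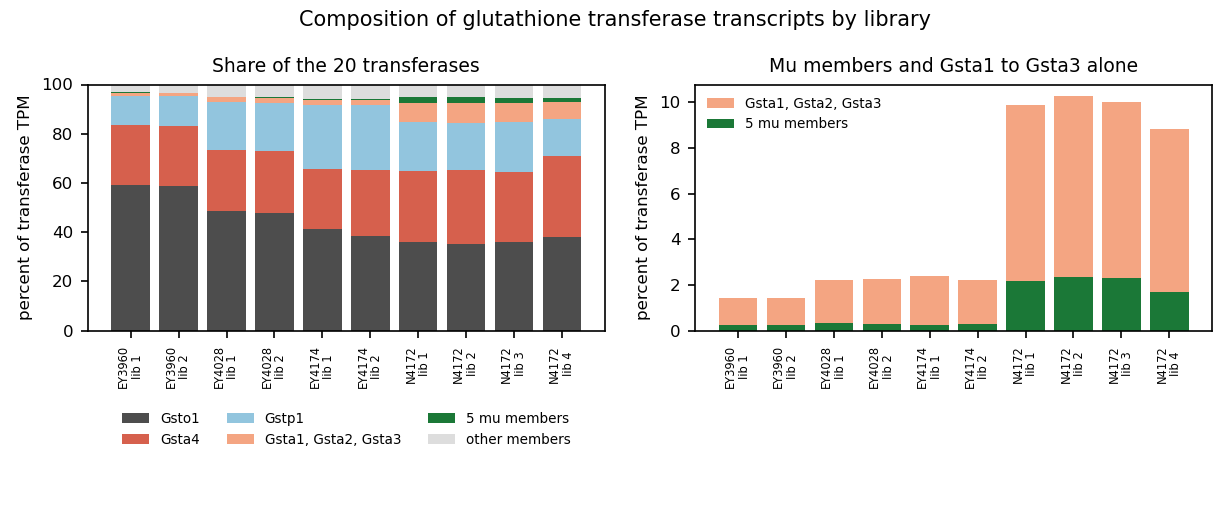
Share of each transferase group in the summed TPM of the 20 transferases, in percent on the y axis, for each library on the x axis. The left panel gives all groups and the right panel, on a narrower axis, the mu members and Gsta1 to Gsta3, whose joint share was lower in each of the 6 EY libraries than in each of the 4 N libraries.

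Neither the factor nor its inhibitor was called. Nfe2l2 was at 138 and 146 TPM in EY3960, 111 and 115 in EY4028, 115 and 110.0 in EY4174, and 154, 154, 163 and 114 in N. The groups overlapped through N replicate 4. The log2 fold change of Nfe2l2 was -0.25 ± 0.12 (SE, adjusted p 0.137), and without N replicate 4 it was -0.37 (adjusted p 0.0231). Keap1 was at 8.03 and 8.68 TPM in EY3960, 7.73 and 8.46 in EY4028, 11.9 and 11.9 in EY4174, and 9.84, 11.3, 9.81 and 9.58 in N, and its log2 fold change was -0.11 ± 0.13 (SE, adjusted p 0.594). Both EY4174 libraries lay above N and the other 4 below it. The NRF2 protein was not measured.

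Genes that supply glutathione were uneven. Gclc, the catalytic subunit of the rate-limiting enzyme of glutathione synthesis, was at 46.1 and 47.0 TPM in EY3960, 45.5 and 45.9 in EY4028, 35.8 and 31.4 in EY4174, and 74.6, 73.4, 81.5 and 116 in N. All EY libraries lay below N, and the log2 fold change was -1.01 ± 0.15 (SE, adjusted p 6.84e-04), just past the threshold. Without N replicate 4 it was -0.87 (adjusted p 0.00122) and was not called. Gclm, the modifier subunit, was at 29.1 to 48.9 TPM in EY and 45.6 to 65.9 TPM in N, overlapping in 1 EY library, and its log2 fold change was -0.69 ± 0.14 (SE, adjusted p 0.00441). The cystine carrier Slc7a11 was at 6.01 to 9.17 TPM in EY and 9.46 to 15.7 TPM in N, at -0.72 ± 0.15 (SE, adjusted p 0.00594). Both stayed short of the fold threshold. Gss, which completes glutathione, and Gsr, which regenerates it, had log2 fold changes of 0.31 and 0.22 (adjusted p 0.163 and 0.239).

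Nqo1, a quinone reductase and the usual reporter of NRF2 activity, was at 95.5 and 93.8 TPM in EY3960, 71.7 and 73.0 in EY4028, 66.2 and 57.5 in EY4174, and 144, 138, 143 and 98.4 in N. Each EY library lay below each N library, the margin to N replicate 4 being small. The log2 fold change was -0.78 ± 0.16 (SE, adjusted p 0.00412). Hmox1, the inducible haem oxygenase, had the opposite sign. It was at 92.6 and 93.0 TPM in EY3960, 83.6 and 76.2 in EY4028, 57.5 and 58.2 in EY4174, and 37.4, 37.7, 39.2 and 58.5 in N. N replicate 4 overlapped line EY4174. The log2 fold change of Hmox1 was 0.82 ± 0.17 (SE, adjusted p 0.00614), and without N replicate 4 it was 0.97 (adjusted p 0.00203). Pgd, of the pentose phosphate pathway, was at 98.2 to 134 TPM in EY and 59.5 to 68.6 TPM in N, a log2 fold change of 0.84 ± 0.10 (SE, adjusted p 1.32e-04). G6pdx, the enzyme before it, was at 122 to 154 TPM in EY and 151 to 161 TPM in N (-0.17 ± 0.07, SE, adjusted p 0.121).

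**Figure D3:**
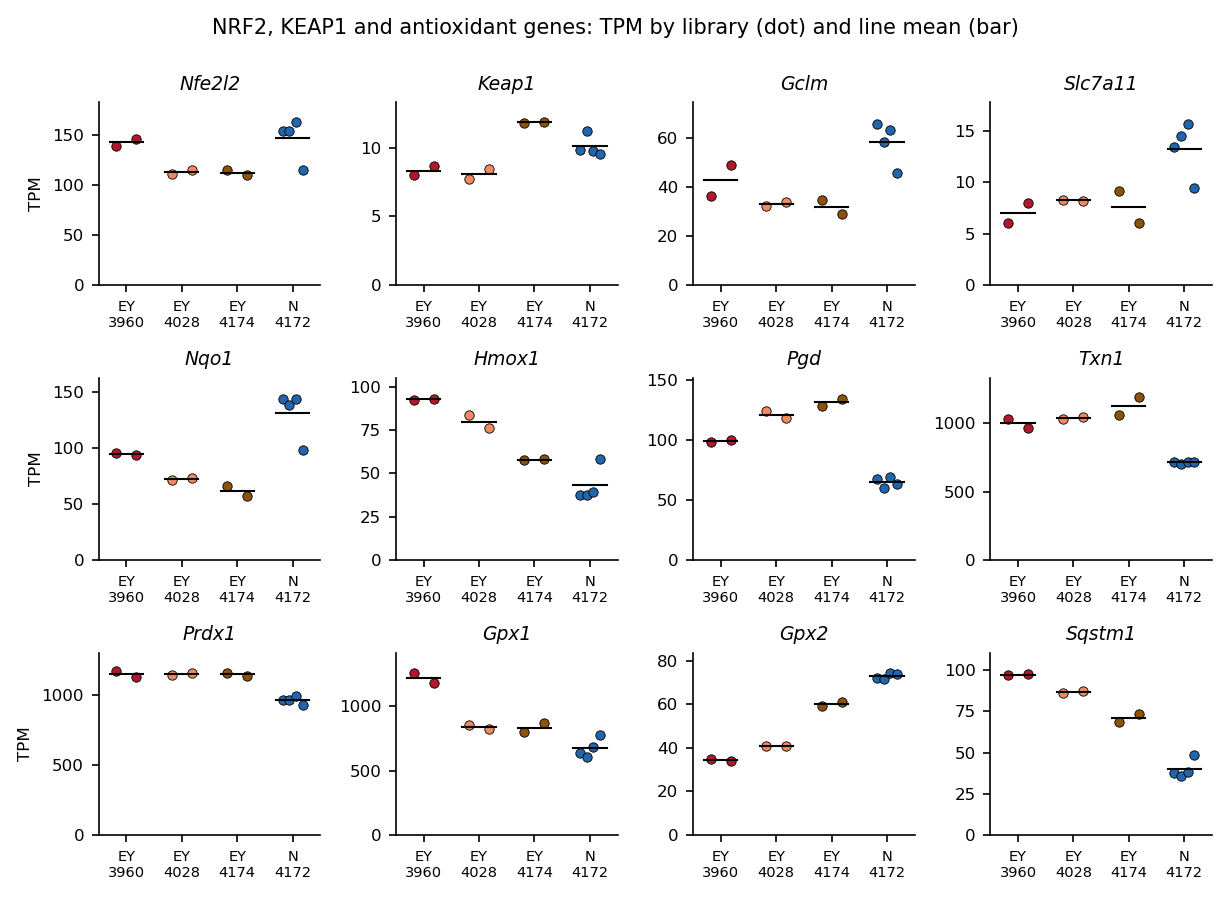
TPM on the y axis for Nfe2l2, Keap1, 9 other members and the pathway gene Sqstm1, by line on the x axis. Dots are libraries and bars line means, and each axis starts at 0. Slc7a11, Nqo1 and Gpx2 lie lower and Pgd, Txn1, Prdx1, Gpx1 and Sqstm1 higher in all EY libraries than in all N libraries.

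No member of the thioredoxin and peroxiredoxin group was called. Txn1, thioredoxin, was at 968 to 1188 TPM in EY and 699 to 719 TPM in N, a log2 fold change of 0.56 ± 0.06 (SE, adjusted p 1.13e-04). Prdx1, the most abundant peroxiredoxin here, was at 1125 to 1169 TPM in EY and 922 to 991 TPM in N, at 0.26 ± 0.05 (SE, adjusted p 0.00468). The groups did not overlap for either gene. Txnrd1, which reduces thioredoxin, had a log2 fold change of 0.53 ± 0.13 (SE, adjusted p 0.0131) and Prdx6 of 0.34 ± 0.11 (SE, adjusted p 0.0441). Srxn1, sulfiredoxin and a classical NRF2 target, was at 18.6 to 24.1 TPM in EY and 20.2 to 23.9 TPM in N, and its log2 fold change was -0.07 ± 0.09 (SE, adjusted p 0.610). Prdx2 was at -0.33 ± 0.19 (SE, adjusted p 0.223).

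Of the peroxidases, catalase and dismutases, 0 of 6 were called between EY and N. Gpx2, an epithelial glutathione peroxidase, was at 34.7 and 34.0 TPM in EY3960, 40.8 and 41.0 in EY4028, 59.3 and 61.0 in EY4174, and 72.0, 71.5, 74.2 and 73.9 in N. All EY libraries were lower, by a line-dependent amount, with a log2 fold change of -0.72 ± 0.16 (SE, adjusted p 0.00809). Gpx1 was at 796 to 1254 TPM in EY and 604 to 772 TPM in N, at 0.49 ± 0.14 (SE, adjusted p 0.0226). Gpx4, at 0.41 ± 0.19 (SE, adjusted p 0.13), shares 51.4% of its 50-base words with a pseudogene. Cat, Sod1 and Sod2 had log2 fold changes of 0.07, 0.03 and 0.09, each with an adjusted p of at least 0.280.

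Each EY line was then compared with N on its own, which asks how far these differences held across cultures. The comparisons share the 4 N libraries. In line EY3960, 10 members were lower and 3 higher, against 3.08% and 3.96% of all genes. In EY4028, 10 were lower and 0 higher, against 2.18% and 3.56%. In EY4174, 13 were lower and 1 higher, against 2.94% and 2.01%. Called lower in all 3 lines were 8 members, Gstm1, Gstm4, Gstm5, Gstm6, Gsta1, Gsta2, Gsta3 and Gstp2, where 1.09% of all genes were, and the filter had fixed the direction of Gstm4 and Gstm6. Called in 1 or 2 lines were 11 members, and 23 were called in no line.

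**Figure D4:**
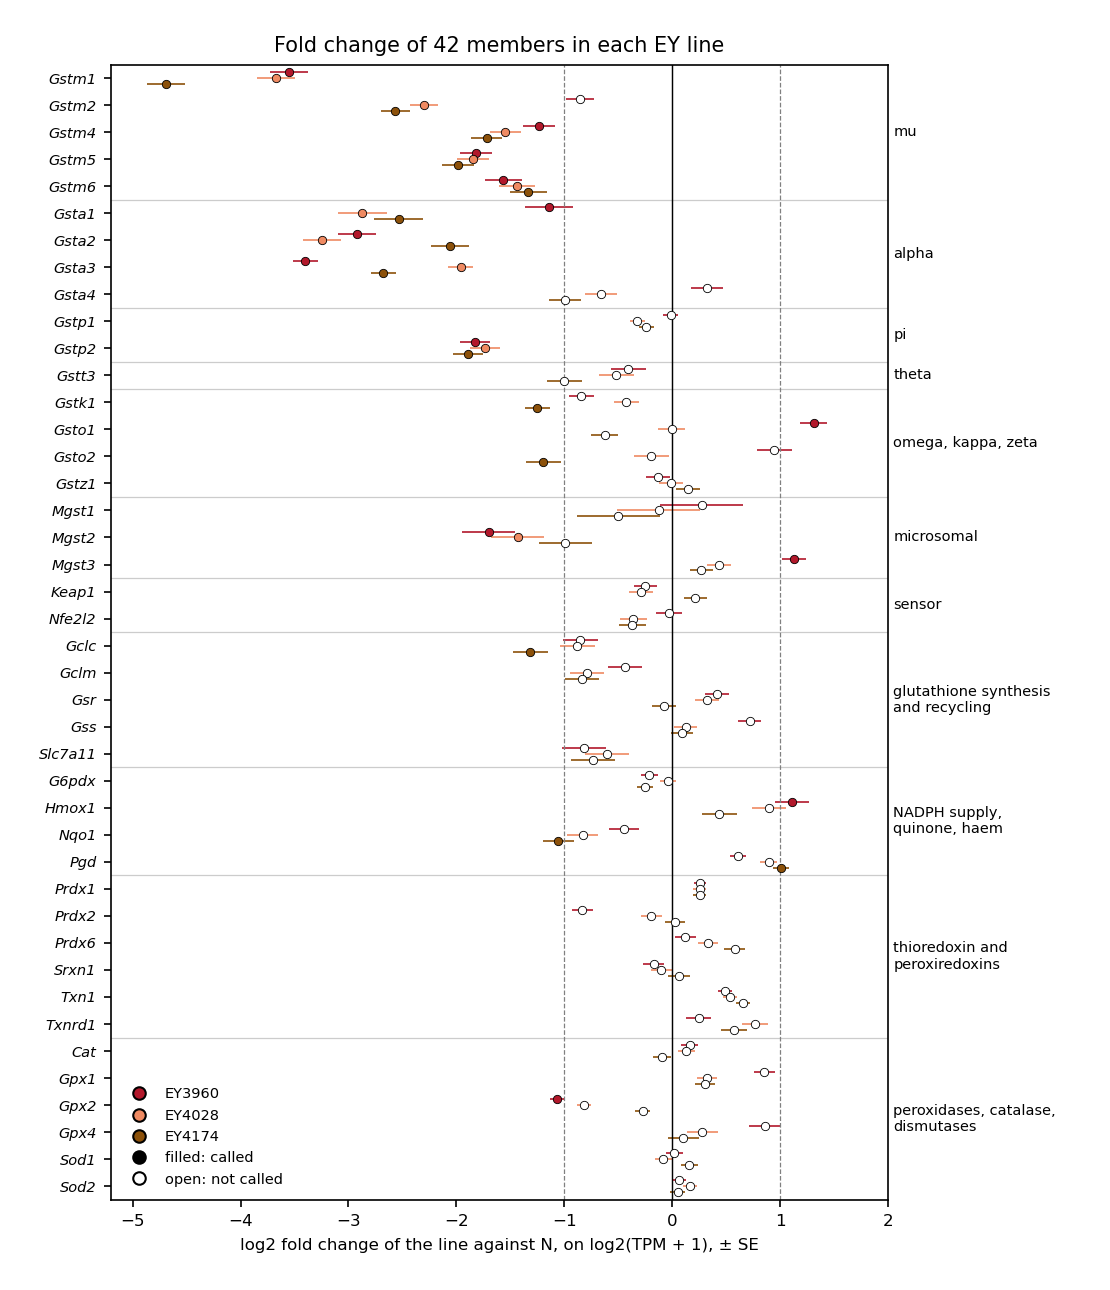
Log2 fold change of each of the 42 tested members in each EY line against N, on the x axis with SE as error bars, with members on the y axis in order of their role. Filled dots were called, open dots were not, dashed lines mark a fold change of 1 in either direction, and Gstm1 lies between -3.55 and -4.69.

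Line by line, Gstm1 had log2 fold changes of -3.55, -3.67 and -4.69 in EY3960, EY4028 and EY4174. Gsta3 had -3.40, -1.96 and -2.68, and Gsta2 -2.92, -3.25 and -2.06. Gstp2 was the most even, at -1.83, -1.73 and -1.89. Gstm2 was called in EY4028 (-2.30) and EY4174 (-2.56) and was at -0.86 in EY3960 (adjusted p 6.91e-04). Gclc was called in EY4174 (-1.31, adjusted p 2.13e-04) and was at -0.85 and -0.88 in the other lines. Mgst2 was called in EY3960 (-1.702, adjusted p 7.42e-04) and EY4028 (-1.43, adjusted p 0.00238) and was at -0.99 in EY4174 (adjusted p 0.0156).

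Another 9 members were called in 1 line each, Gclc in EY4174 among them. In EY3960, Gsto1 (1.31, adjusted p 2.67e-05), Mgst3 (1.13, adjusted p 2.79e-05) and Hmox1 (1.11, adjusted p 4.21e-04) were higher, and Gpx2 (-1.06, adjusted p 1.09e-06) was lower. In EY4174, Gstk1 (-1.25, adjusted p 3.33e-05), Gsto2 (-1.19, adjusted p 3.85e-04) and Nqo1 (-1.06, adjusted p 3.94e-04) were lower. Pgd was higher there at 1.01 (adjusted p 7.85e-06), at the edge of the threshold, and without N replicate 4 it was at 0.996. Without N replicate 4, Hmox1 was also called in EY4028 (1.05), and Gsta1 was no longer called in EY3960 (-0.93).

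Differences among the EY lines were tested directly with an F test of the 3 line means, and a difference over 1 between at least 1 pair of lines was required. Of the 42 members, 8 differed, and 5.12% of all genes did. All 8 were transferases, namely Gstm1, Gstm2, Gsta1, Gsta2, Gsta3, Gsta4, Gsto1 and Gsto2. The widest were Gsto2 (2.14 between EY3960 and EY4174, adjusted p 6.21e-05) and Gsto1 (1.93 between the same lines, adjusted p 1.89e-05). The lines did not keep 1 order. EY3960 was the highest for Gsto1, Gsto2, Gsta4, Gsta1 and Gstm2 and the lowest for Gsta3, where EY4028 stood 1.44 above it (adjusted p 1.18e-04). EY4174 was the highest for Gsta2 and the lowest for Gstm1, 1.14 below EY3960 (adjusted p 0.00497). No other member differed by that rule, and among them Gstk1 (largest difference 0.82, adjusted p 0.00520), Mgst3 (0.86, adjusted p 0.00180), Prdx2 (0.86, adjusted p 9.07e-04) and Gpx2 (0.79, adjusted p 1.49e-04) came nearest.

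**Figure D5:**
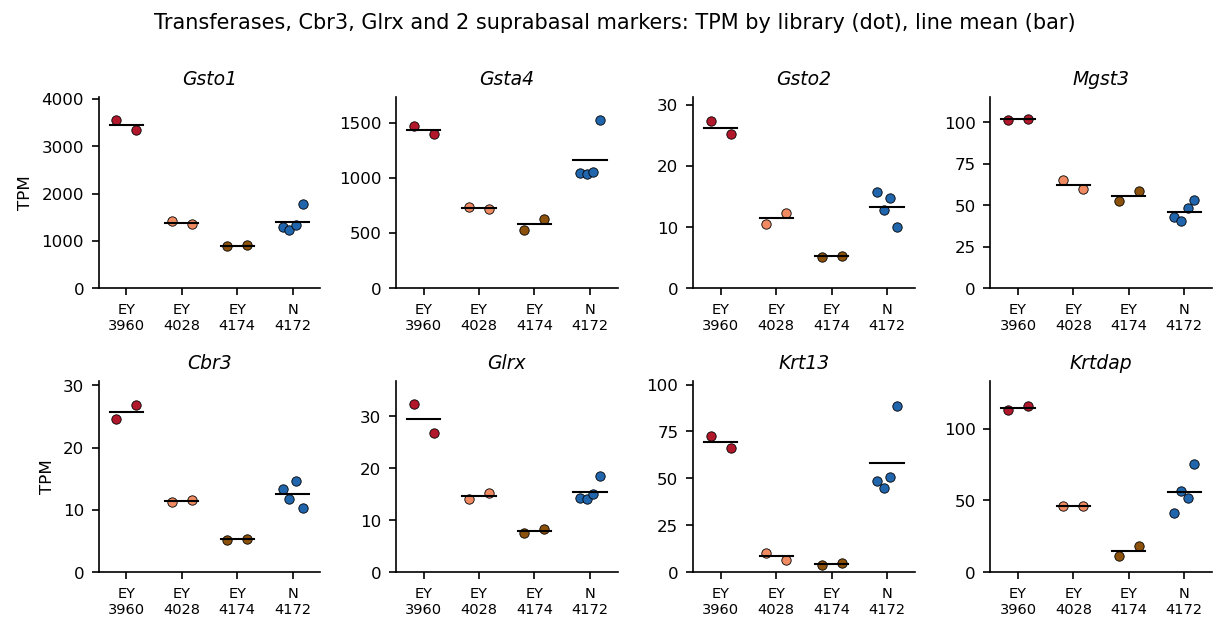
TPM on the y axis for Gsto1, Gsta4, Gsto2, Mgst3, the pathway genes Cbr3 and Glrx and Krt13 and Krtdap, 2 of the 6 suprabasal keratinocyte markers chosen after their values were seen, by line on the x axis. Dots are libraries and bars line means, and each axis starts at 0. In the panels shown EY3960 lies above the other EY lines and EY4174 has the lowest line mean of the EY lines. Of the markers not shown, Ivl has this order, Krt4 and Sbsn have EY4174 above EY4028, and the EY lines of Krt10 overlap.

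Markers of differentiating, suprabasal keratinocytes were set beside the omega members. Of the 6 such markers in the table, EY3960 had the highest mean of the EY lines for 5, and 3 of these, Krtdap, Krt13 and Ivl, also had EY4028 above EY4174, which is the order of Gsto1 and Gsto2. Krtdap was at 113 and 116 TPM in EY3960, 46.1 and 46.4 in EY4028, 11.3 and 17.9 in EY4174, and 41.2 to 75.8 in N. Krt13, a keratin of the layers above the basal one, was at 72.5 and 66.0 TPM in EY3960, 10.4 and 6.22 in EY4028, 3.55 and 4.99 in EY4174, and 44.8 to 88.6 in N. For Krt4 and Sbsn, EY4174 lay above EY4028, and the EY lines of Krt10 overlapped (adjusted p 0.611 among lines). The summed level of the 6 markers was 1021 and 1013 TPM in EY3960, 542 and 524 in EY4028, 551 and 599 in EY4174, and 493 to 692 in N. EY3960 thus had the highest sum, and EY4174 was not below EY4028. Cd68, a lysosomal gene abundant in macrophages, was at 68.9 and 71.8 TPM in EY3960, 35.7 and 38.2 in EY4028, 29.5 and 29.3 in EY4174, and 42.1 to 68.7 in N. Of the 5 mu members, 4 also had line means in the omega order, all but Gstm6, although the libraries of EY3960 and EY4028 overlapped for Gstm1 and those of all lines for Gstm5. A change in the share of differentiating cells and a change in transcript per cell cannot be told apart in bulk RNA, and the part of these markers in the differences was not tested.

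Other genes of the pathway were taken from a list of NRF2 partners, phase II enzymes, efflux pumps, glutathione handling and peroxide removal. Of 67 listed genes, 62 were in the table and 57 were tested, and 3 were lower and 3 higher between EY and N, against 1.7% and 1.85% of all genes. Their median log2 fold change was 0.12. Ugdh, which makes the UDP-glucuronate used in glucuronidation, was at 24.6 to 31.4 TPM in EY and 53.5 to 69.1 TPM in N, a log2 fold change of -1.18 ± 0.10 (SE, adjusted p 9.22e-06). Hagh, a glyoxalase that releases glutathione, was at 69.8 to 107 TPM in EY and 140.4 to 216 TPM in N, at -1.10 ± 0.15 (SE, adjusted p 3.25e-04). Sesn1, a p53-regulated sestrin, was at 2.11 to 4.34 TPM in EY and 6.30 to 8.84 TPM in N, at -1.11 ± 0.17 (SE, adjusted p 8.43e-04). In these genes no EY library reached the lowest N library.

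Higher in EY was Sqstm1, the autophagy receptor p62 that binds KEAP1, at 97.0 and 97.5 TPM in EY3960, 86.4 and 87.2 in EY4028, 68.4 and 73.4 in EY4174, and 37.8, 35.7, 38.2 and 48.5 in N. No EY library came down to an N level, and the log2 fold change was 1.06 ± 0.12 (SE, adjusted p 9.47e-05). Chac1, which degrades glutathione, was at 11.9 to 15.2 TPM in EY and 3.11 to 7.67 TPM in N, a log2 fold change of 1.13 ± 0.18 (SE, adjusted p 0.00110). Abcc3, an efflux pump for glutathione and glucuronide conjugates, was at 0.652 to 2.38 TPM in EY and at most 0.274 TPM in N, at 1.03 ± 0.19 (SE, adjusted p 0.00244). No N library reached 1 TPM, so that Abcc3 passed the filter through the EY libraries alone and its direction was fixed by it.

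Between the EY lines, 5 of the 57 tested pathway genes differed, where 5.12% of all genes did. The 3 with the smallest adjusted p were Cbr3, a carbonyl reductase, Pir, an iron-binding nuclear protein, and Glrx, glutaredoxin. Cbr3 was at 24.5 and 26.9 TPM in EY3960, 11.2 and 11.6 in EY4028, 5.11 and 5.38 in EY4174, and 10.2 to 14.7 in N (largest difference 2.10, adjusted p 1.86e-05). Glrx was at 32.3 and 26.7 TPM in EY3960, 14.1 and 15.3 in EY4028, 7.54 and 8.23 in EY4174, and 14.0 to 18.5 in N (largest difference 1.77, adjusted p 5.43e-05). Both had the line order of Gsto1 and Gsto2. Pir ran the other way, at 1.07 and 1.22 TPM in EY3960, 3.42 and 3.51 in EY4028, 5.75 and 5.78 in EY4174, and 5.31 to 6.28 in N (largest difference 1.66, adjusted p 3.59e-05).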

How the data were processed

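RNA-seq of 10 libraries was analysed from 1 table of TPM as deposited by the authors, with 18586 genes by symbol and all 10 columns matched to samples by the labels, 0 being unmatched. Per the labels, poly(A) RNA was extracted with TRIzol, and the submitters' processing notes name GRCm39, STAR 2.7.9, SAMtools 1.7, HTSeq 0.13.5 and DESeq2 1.34.0. The study's methods also describe Kallisto with TPM, and which step made the table is not given in the sources used here. TPM keep no read depth, so that no counting interval or floor is given. Since each row is above 0 in at least 6 libraries, genes seen in N alone are not in the table.

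Tests were made with limma 3.58.1 in R 4.3.3, with its trend and robust options, on the scale log2(TPM + 1). Genes had to reach 1 TPM in 4 or more libraries, and p-values were adjusted over all such genes. A fold change on this scale understates that of low genes. The EY against N fit had 2 groups, and line comparisons used a model of 4 line means. The thresholds for a call, as in the study's methods, were an adjusted p under 0.01 and a log2 fold change beyond 1 in either direction. The scripts were tested on simulated data. Alternatives were scaling, filter, pseudocount, blocks, libraries or lines left out, and thresholds. Named were all members called in any test, Nfe2l2, Keap1, the most abundant member of a role with none called, 6 pathway genes called between EY and N and 3 between lines by smallest adjusted p. Other members, markers and flanking genes are given for completeness. Members and lists were chosen with earlier results of these data known. Shared 50-base words came from GENCODE M21 (GRCm38). Chromosomal order and promoter windows came from RefSeq (GRCm38.p6). Both sources use a build other than that of the processing notes. No sequencing batch was given.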

Additional observations from a re-analysis of the deposited data

Results flagged for a closer look

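For 53 genes, the EY and the N libraries were each searched for 1 library well outside the others. Of these 106 searches 10 found one, where independent libraries would give about 1 in 20, or 5.3. The EY libraries were 2 of each line, so that this rate does not hold for them. In 6 of the 10 searches the library outside the others was N replicate 4. That library was higher than the other N libraries for Gsta1 (189.7 TPM), Gsta4 (1527 TPM), Mgst2 (115 TPM), Hmox1 (58.5 TPM) and Gstt3 (3.58 TPM), and lower for Nqo1 (98.4 TPM). The other 4 were Keap1 (11.3 TPM) and Txn1 (699 TPM) in N replicate 2, Gstt2 (0.217 TPM, the others listed at 0) in N replicate 3, and Gclm in EY3960 replicate 2 (48.9 TPM).

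The F test among the EY lines found a difference for 8 members, given here as the largest difference of line means on log2(TPM + 1): Gstm1 (1.14), Gstm2 (1.71), Gsta1 (1.73), Gsta2 (1.19), Gsta3 (1.44), Gsta4 (1.31), Gsto1 (1.93) and Gsto2 (2.14). The pathway genes Cbr3 (2.10), Pir (1.66) and Glrx (1.77) differed by the same test.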

How the results depend on the processing

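Between EY and N, 11 members were called, and the same number with mitochondrial transcripts left out, median scaling, quantile normalization, no filter, a pseudocount of 0.1 TPM, or without line EY3960. Over all genes the main fit called 413 and these alternatives 410 to 552. Requiring 1 TPM in every library left 7 called, where 216 of 9891 genes were called. It took Gstm1, Gstm4, Gstm6 and Gsta2 out of the test. Line as a random block gave 7, without Gclc, Gsta1, Gstm2 and Mgst2, where 203 of 11630 genes were called. The mean of each line left 3 EY values against 1 N value in limma, so that the spread came from the EY lines alone. No count is given for that fit, which cannot decide a call. Leaving out 1 library gave 6 to 11 members between EY and N, and 295 to 444 of all genes. There were 6 members without N replicate 4 and 7 without N replicate 1, 2 or 3. In these fits Gstm4 and Gstm6 dropped below the filter. Between the EY lines leaving out 1 library gave 5 to 8 members, with 5 without either library of EY3960 or EY4174. Over all genes it gave 400 to 716. It gave 10 to 13 members for EY3960, 8 to 10 for EY4028 and 11 to 14 for EY4174. The counts over all genes were 637 to 875, 453 to 699 and 443 to 600. Requiring 1 TPM in every library gave 6 members for EY4028, where 371 of 9891 genes were called. An adjusted p under 0.05 with no fold threshold gave 25 members between EY and N, 27, 28 and 29 for EY3960, EY4028 and EY4174, and 21 between lines, where 24.5%, 28.4%, 30.6%, 30.4% and 19.1% of all genes passed.

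A replicate block on the labels' sample numbers left 6 members called between EY and N, where 221 of 11630 genes were called. Gclc, Gsta1, Gsta3, Gstm2 and Mgst2 lost their calls. The numbers do not pair the libraries, since of 12 pairs of same-numbered libraries 1 had a correlation of deviations over 0.1 (range -0.15 to 0.10).

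Of 2105 values of single genes under alternatives, 1963 kept direction and call, 80 lost a call, 50 gained one and 12 changed sign. All sign changes were of Gsto1, Gsto2 and Nfe2l2, none of them called in the comparison concerned. Gsto1 went to -0.31 between EY and N without line EY3960, and in EY4028 to 0.0057 without mitochondrial transcripts, 0.14 with the replicate block, and between -0.066 and 0.11 when 1 library was left out, being above 0 without EY4028 replicate 2 or N replicate 4. Gsto2 between EY and N ranged from -0.38 to 0.068 when 1 library was left out, above 0 without EY4174 replicate 1 or 2, and was at 0.38 without that line. Nfe2l2 in EY3960 ranged from -0.14 to 0.027 when 1 library was left out, above 0 without EY3960 replicate 1 or N replicate 1, 2 or 3. The cause was not tested. The read depth is unknown, and levels near 1 TPM, as of Gstm4, Gstm6, Gsta2 in EY and Abcc3, are the least certain.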
